A study of Mus musculus with 32 samples.

Results

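Genes for the receptors and ligands that restrain or sustain T cells, known as immune checkpoints, were followed in mouse mesothelioma tumors grown at 2 sites. The set was named by symbol as Pdcd1, Cd274, Pdcd1lg2, Ctla4, Lag3, Havcr2, Tigit, Icos, Tnfrsf9 and Vsir, and rows of the count table were matched to these symbols. Of the 10 genes named, 9 had a row among the 39676 rows of the table, and Tigit was not analysed here. RNA from whole tumors of 32 female mice was sequenced, with 8 mice in each of 4 groups, and all mice were untreated and harvested on day 10. AB1 tumors grew in BALB/c mice from 500000 cells and AE17 tumors in C57BL/6 mice from 1000000 cells. Both are transplantable murine mesothelioma lines, and each was placed either in the pleural cavity (IPL tumors) or under the skin of the flank (SC tumors) of mice of its own strain. Each model is thus 1 cell line in 1 strain at 1 cell number, and these cannot be told apart in a comparison between models. After harvest the lungs and adjoining tissue were taken off the IPL tumors, per the study's methods, and each library holds RNA of tumor cells, of immune cells and of any host tissue left on the tumor.

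T cells read an antigen through the T cell receptor and weigh it against signals from a second layer of receptors. PD-1 (Pdcd1) dampens receptor signaling when it meets PD-L1 (Cd274) or PD-L2 (Pdcd1lg2) on other cells. CTLA-4 (Ctla4) competes with the costimulatory receptor CD28 for CD80 and CD86 and is abundant on regulatory T cells, while ICOS (Icos), a relative of CD28, supports activated and regulatory T cells. LAG-3 (Lag3) and TIM-3 (Havcr2) mark chronically stimulated T cells, and TIM-3 is also found on myeloid cells. 4-1BB (Tnfrsf9) is a costimulatory receptor of the TNF receptor family, and VISTA (Vsir) is an inhibitory molecule found largely on myeloid cells. Antibodies against PD-1 and CTLA-4 are used to treat mesothelioma.

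The 2 ligands of PD-1 are neighbors on chromosome 19 of the mouse genome (GRCm38, GENCODE M21). Cd274 lies on the plus strand at chr19:29367455-29388095 and Pdcd1lg2 on the same strand at chr19:29410919-29471161, with 22823 bases between them. Their promoter sequences are shown because their levels moved to different extents, and that of Tnfrsf9 because it held matches to 2 of the 3 motifs searched. The windows of 300 bases around the start of transcription come from RefSeq on GRCm38.p6, all on the plus strand, at chr19:29367188-29367487 for Cd274, chr19:29410669-29410968 for Pdcd1lg2 and chr4:150927749-150928048 for 1 of 2 starts of Tnfrsf9. Capitals mark motif matches.
Cd274: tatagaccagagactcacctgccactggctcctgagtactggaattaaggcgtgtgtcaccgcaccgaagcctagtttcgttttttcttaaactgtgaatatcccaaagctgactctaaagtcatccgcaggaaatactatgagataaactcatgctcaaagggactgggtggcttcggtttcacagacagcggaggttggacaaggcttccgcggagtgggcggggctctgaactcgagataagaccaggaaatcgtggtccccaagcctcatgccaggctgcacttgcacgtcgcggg
Pdcd1lg2: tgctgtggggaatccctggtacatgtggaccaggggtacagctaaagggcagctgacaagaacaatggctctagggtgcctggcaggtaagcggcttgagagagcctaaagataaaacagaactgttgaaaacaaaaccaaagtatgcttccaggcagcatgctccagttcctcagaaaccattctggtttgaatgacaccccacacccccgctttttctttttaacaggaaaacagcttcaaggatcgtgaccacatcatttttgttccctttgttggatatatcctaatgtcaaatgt
Tnfrsf9: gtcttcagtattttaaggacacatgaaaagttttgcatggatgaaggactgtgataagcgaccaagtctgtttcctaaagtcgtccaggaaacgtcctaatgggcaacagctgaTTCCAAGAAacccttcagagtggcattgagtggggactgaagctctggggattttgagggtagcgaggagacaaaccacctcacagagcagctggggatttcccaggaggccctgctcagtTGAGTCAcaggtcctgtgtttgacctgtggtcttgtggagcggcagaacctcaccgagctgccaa
The letters searched on both strands were TTCNNNGAA for STAT factors, the core of the interferon-stimulated response element and TGANTCA for AP-1. Among the 32851 promoter windows of the mouse, 8.3%, 3.44% and 7.81% held these letters. The Tnfrsf9 window held the first and the third, a window of Havcr2 held the third, and the windows shown for Cd274 and Pdcd1lg2 held none.

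The other genes lie apart, except that Ctla4 (chr1:60887000-60915832, plus strand) and Icos (chr1:60977927-61000320, plus strand) are neighbors with 62094 bases between them. Pdcd1 lies on the minus strand at chr1:94038305-94052553, Lag3 on the minus strand at chr6:124904361-124911705, Havcr2 on the plus strand at chr11:46454935-46481255, Tnfrsf9 on the plus strand at chr4:150914562-150946102 and Vsir on the plus strand at chr10:60346851-60372684. An antisense gene, AC119228.1, overlaps exons of Cd274 on the opposite strand. Whether counting used strand is not stated in the sources used here, and reads of that gene and of Cd274 may not be told apart.

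Total counts per tumor ran from 15432258 to 20649645, so that a floor of 3 counts equaled between 0.145 and 0.194 counts per 1000000 counts of the library. Levels below are given on this scale after TMM scaling (CPM). Checkpoint genes lay above this floor in every tumor, with a lowest count of 10 for Pdcd1lg2 in 1 AE17 SC tumor. The AE17 SC group varied widely in most checkpoint genes, and its replicates 1 and 3 were high and its replicates 6 and 8 low in most of them. T cell transcripts, as the summed CPM of Cd3d, Cd3e and Cd3g, ranged from 5.60 to 32.9 in AB1 IPL, from 30.4 to 60.3 in AB1 SC, from 19.2 to 54.9 in AE17 IPL and from 5.30 to 61.8 in AE17 SC tumors. Of the 8 mesothelial markers 5 had a row, and their summed level ran from 75.7 to 259.0 CPM over all tumors, with the defining gene Msln not analysed here. Pdpn made up most of that sum, with medians of 88.9 CPM in AB1 IPL and 167 in AE17 IPL tumors, where the sum had medians of 90.5 and 180. Group medians of Krt19, Wt1, Upk3b and Calb2 were at most 4.40, 2.08, 1.85 and 0.790 CPM. Summed transcripts of 6 skeletal muscle genes had a median of 1826 CPM in AB1 IPL and 267.0 in AB1 SC tumors, against 445 in AE17 IPL and 513 in AE17 SC tumors. Sequencing lanes followed the groups in large part. All 8 AB1 IPL tumors and 2 of the AB1 SC tumors were on lane 3, 6 AB1 SC and 5 AE17 IPL tumors on lane 2, and 3 AE17 IPL and 8 AE17 SC tumors on lane 1. In these bulk samples, fewer cells of a type and less RNA per cell cannot be told apart.

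**Figure D1:**
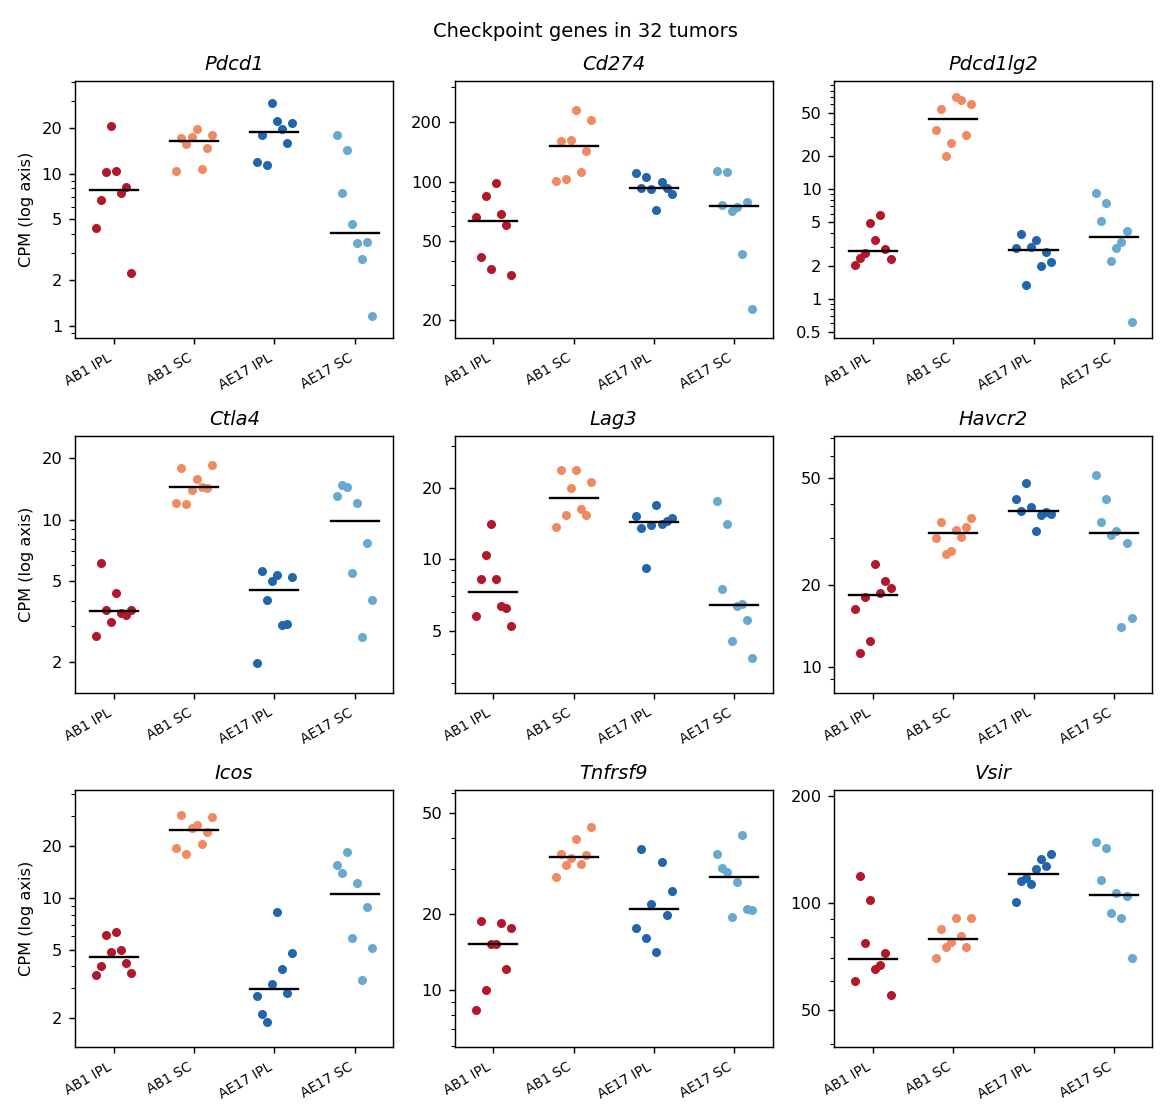
Level of each checkpoint gene in 32 tumors, in CPM on a log axis, with 1 point per tumor in the 4 groups (8 each) and a line at the group median. AB1 SC tumors stand above AB1 IPL tumors without overlap for Cd274, Pdcd1lg2, Ctla4, Havcr2, Icos and Tnfrsf9. The AE17 groups overlap for each of the 9 genes, as they do for nearly all genes tested.

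To see how the site of growth related to checkpoint transcripts, IPL and SC tumors were first compared within the AB1 model. Of the 9 checkpoint genes, 7 were lower in IPL tumors, none was higher, and Pdcd1 and Vsir did not pass the threshold (edgeR quasi-likelihood test, Benjamini-Hochberg adjusted p under 0.05 over 14645 genes). Of all genes tested, 10.7% were lower in IPL tumors and 12.3% higher. The median log2 fold change was -1.29 over the checkpoint genes and -0.002 over all genes. For 6 of the 9, every IPL tumor lay below every SC tumor, which held for 2.48% of all genes.

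Pdcd1lg2, the gene for PD-L2, differed most. It was at 2.03 CPM in the lowest, 2.75 in the median and 5.85 in the highest AB1 IPL tumor, against 20.1, 44.4 and 69.9 in AB1 SC tumors. The lowest SC tumor was thus far above the highest IPL tumor. The log2 fold change was -3.82 ± 0.31 (SE, n = 8 per group), a 14.2-fold lower level in IPL tumors (edgeR adjusted p = 1.18e-06).

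Cd274, the gene for PD-L1, ranged from 33.8 to 98.2 CPM around a median of 63.5 in AB1 IPL tumors and from 101 to 230.0 around 152 in AB1 SC tumors. The groups came close to each other without overlapping. Its level was 2.53-fold lower in IPL tumors (log2 fold change -1.34 ± 0.24, edgeR adjusted p = 0.000737). The median ratio of Cd274 to Pdcd1lg2 CPM was 19.5 in IPL tumors, with a range from 7.35 to 32.6, and 3.32 in SC tumors, with a range from 1.69 to 6.04.

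For their receptor, Pdcd1, the AB1 IPL tumors ranged from 2.22 to 20.6 CPM with a median of 7.83 and the SC tumors from 10.4 to 19.6 with a median of 16.4. The groups overlapped because AB1 IPL replicate 4, at 20.6 CPM, was above every SC tumor. The log2 fold change was -0.85 ± 0.31 (edgeR adjusted p = 0.0558). Without that tumor it was -1.18, and Pdcd1 then passed the threshold, as it did without AB1 SC replicate 1 and, at -0.85, with DESeq2.

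Icos and Ctla4 fell furthest after Pdcd1lg2. Icos was between 3.57 and 6.36 CPM (median 4.52) in AB1 IPL and between 18 and 30.3 (median 24.7) in AB1 SC tumors. This was a 5.25-fold lower level in IPL tumors (log2 fold change -2.39 ± 0.15, edgeR adjusted p = 1.38e-07). Ctla4 ran from 2.68 to 6.14 CPM (median 3.55) in IPL and from 11.9 to 18.5 (median 14.4) in the SC group, and the fold change on the log2 scale was -2.0 ± 0.16 (edgeR adjusted p = 9.5e-07). Neither gene had an IPL tumor within the range of the SC tumors.

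Lag3, Tnfrsf9 and Havcr2 were lower in IPL tumors by smaller factors. Lag3 ranged from 5.23 to 14.1 CPM (median 7.29) in AB1 IPL and from 13.7 to 23.7 (median 18.1) in the SC group, a log2 fold change of -1.24 ± 0.20 (edgeR adjusted p = 0.000267). The groups met only at the highest IPL tumor, again replicate 4. Tnfrsf9, the gene for 4-1BB, was at 8.33 to 18.8 CPM (median 15.2) against 28.1 to 44.0 (median 33.6), with a log2 fold change of -1.29 ± 0.15 (edgeR adjusted p = 3.21e-05). Havcr2, the gene for TIM-3, was at 11.2 to 23.9 CPM (median 18.4) against 26.2 to 35.4 (median 31.2), with a log2 fold change of -0.84 ± 0.13 (edgeR adjusted p = 0.000283). Both genes separated the groups fully. Vsir, the gene for VISTA, was at 54.8 to 119 CPM (median 69.4) in IPL and 70.1 to 90.7 (median 79.0) in SC tumors, and its log2 fold change of -0.09 had a 95% interval from -0.38 to 0.20 (edgeR adjusted p = 0.662).

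Within lane 3, which held the 8 IPL tumors and 2 SC tumors, the log2 fold changes were -3.82 for Pdcd1lg2, -2.47 for Icos and -2.04 for Ctla4, and these 3 genes passed the threshold. The others were at -1.29 for Lag3, -1.18 for Tnfrsf9, -1.15 for Cd274, -0.92 for Havcr2, -0.73 for Pdcd1 and -0.07 for Vsir. Every gene kept its direction within the lane. With scores of muscle, heart, fat and lung epithelium markers in the fit, the same 7 genes passed the threshold, at log2 fold changes from -3.66 for Pdcd1lg2 to -0.80 for Tnfrsf9. That fit can adjust little for lung tissue. Sftpa1, Sftpb and Scgb1a1 had AB1 medians of at most 0.100 CPM, and Napsa was at 12.9 in AB1 IPL and 23.4 in AB1 SC tumors.

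T cell markers were themselves lower in AB1 IPL tumors, with 9 of 9 past the threshold. When the mean log2 level of these markers was added to the fit, Pdcd1lg2 (log2 fold change -3.01), Icos (-1.79), Ctla4 (-1.65), Tnfrsf9 (-1.20) and Havcr2 (-0.96) remained below the SC tumors and past the threshold. Cd274 was then at -0.52 (edgeR adjusted p = 0.392) and Lag3 at -0.26 (adjusted p = 0.24). Vsir turned to a log2 fold change of 0.49 (adjusted p = 0.0489), and Pdcd1 to 0.68 without passing the threshold (adjusted p = 0.0636). With macrophage markers in the fit, 6 genes passed and Cd274 did not, at -1.11.

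**Figure D2:**
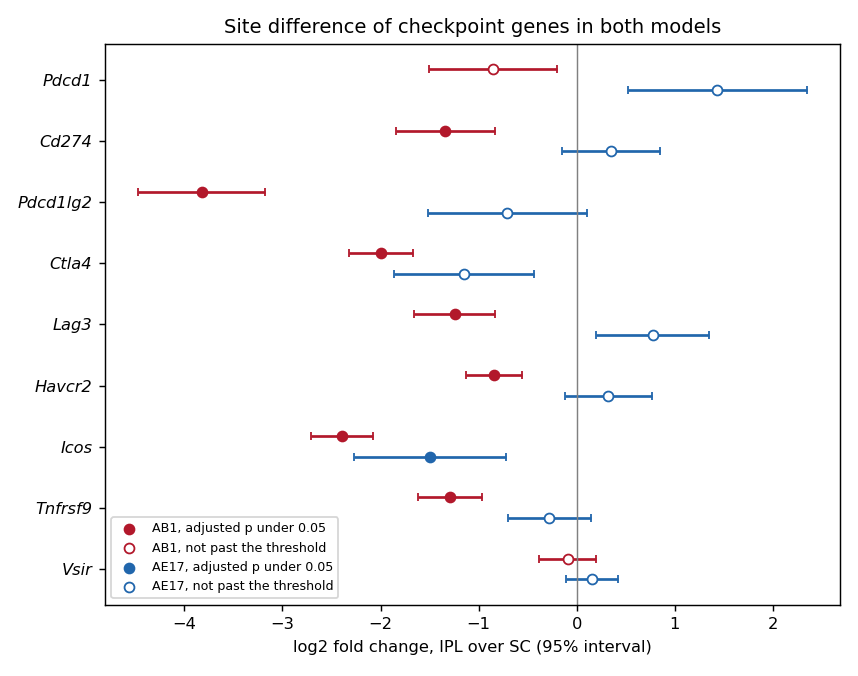
Log2 fold change of IPL over SC tumors for each checkpoint gene in AB1 (red) and AE17 (blue), with unadjusted 95% intervals, from 8 tumors per group; filled points have an adjusted p under 0.05. In AB1 7 genes are filled and lie to the left of 0, from Pdcd1lg2 at -3.82 to Havcr2 at -0.84, and in AE17 only Icos is filled, at -1.49.

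The same comparison in the AE17 model gave 1 checkpoint gene past the threshold, Icos, which was lower in IPL tumors. Of the 14668 genes tested, 3.13% were lower and 2.6% higher. The median log2 fold change was 0.16 over the checkpoint genes and 0.004 over all genes. Both AE17 groups overlapped for each of the 9 genes, as they did for nearly all genes. Every IPL tumor lay below every SC tumor for 45 of the 14668 genes and above for 39.

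Icos ranged from 1.90 to 8.23 CPM (median 2.97) in AE17 IPL and from 3.34 to 18.6 (median 10.5) in AE17 SC tumors. The ranges overlapped, and most SC tumors lay above most IPL tumors. The log2 fold change was -1.49 ± 0.37 (SE, n = 8 per group, edgeR adjusted p = 0.0288). This call did not hold without any 1 of 7 tumors, namely IPL replicates 1, 2, 3, 4 and 7 and SC replicates 2 and 5, with log2 fold changes from -1.78 to -1.32 over all tumors left out in turn. Ctla4 lay in the same direction, at 1.98 to 5.61 CPM (median 4.51) in IPL and 2.64 to 14.9 (median 9.84) in SC tumors, with a log2 fold change of -1.15 ± 0.34 (edgeR adjusted p = 0.0548), and it passed without any 1 of IPL replicate 5 and SC replicates 4, 6 and 8.

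Pdcd1 and Lag3 had positive differences. Pdcd1 was at 11.3 to 29 CPM (median 18.8) in AE17 IPL and at 1.16 to 18.1 (median 4.08) in AE17 SC tumors, where replicates 1 and 3, at 18.1 and 14.2, were far above the other 6. Its log2 fold change was 1.43 ± 0.43 (edgeR adjusted p = 0.0599), and it rose to 1.81 at most, past the threshold, without SC replicate 1, and also passed without SC replicate 3. Lag3 was at 9.18 to 16.9 CPM (median 14.3) against 3.84 to 17.7 (median 6.43), with a log2 fold change of 0.77 ± 0.27 (edgeR adjusted p = 0.0942). It too passed without either of these SC tumors.

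The PD-1 ligands, TIM-3, 4-1BB and VISTA did not pass the threshold in AE17. Cd274 ranged from 72.0 to 111 CPM (median 93.0) in IPL and from 22.7 to 114 (median 75.5) in SC tumors, with a log2 fold change of 0.35 and a 95% interval from -0.15 to 0.85. Pdcd1lg2 ranged from 1.35 to 3.90 CPM (median 2.79) in IPL and from 0.609 to 9.34 (median 3.70) in SC tumors, with a log2 fold change of -0.71 and an interval from -1.51 to 0.10. Both intervals include 0. Havcr2 ranged from 31.7 to 47.6 CPM (median 37.6) in IPL and from 14 to 51.2 (median 31.1) in SC tumors, with an interval of the log2 fold change from -0.12 to 0.77. Tnfrsf9 ranged from 14.2 to 36.1 CPM (median 20.9) and from 19.5 to 40.9 (median 27.9), with an interval from -0.71 to 0.14. The levels of Vsir were 101 to 137 CPM (median 121) and 70.1 to 149 (median 106), with an interval from -0.11 to 0.43.

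Depending on the fit, between 0 and 4 checkpoint genes passed the threshold in AE17. Icos, Ctla4, Pdcd1 and Lag3 did so with DESeq2 and with all 32 tumors in 1 fit. With T cell markers in the fit, Icos (log2 fold change -1.91, edgeR adjusted p = 0.000333), Ctla4 (-1.45, adjusted p = 0.0021), Pdcd1lg2 (-1.02, adjusted p = 0.0337) and Pdcd1 (1.14, adjusted p = 0.00473) passed. Within lane 1, with 3 IPL and 8 SC tumors, none passed, and the log2 fold changes were 1.46 for Pdcd1, 0.82 for Lag3, 0.33 for Cd274, 0.28 for Vsir, 0.26 for Havcr2, -0.13 for Tnfrsf9, -0.94 for Pdcd1lg2, -1.29 for Ctla4 and -1.45 for Icos. Each gene kept its direction in that lane.

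Whether the site difference itself differed between the models was tested as an interaction over all 32 tumors, which uses the same tumors as both comparisons above. The difference between IPL and SC was lower in AB1 than in AE17 for 6 of 9 checkpoint genes and higher for none, where 8.62% of 15681 genes were lower. The genes were Pdcd1lg2 (log2 difference -3.10 ± 0.49, edgeR adjusted p = 0.000104), Pdcd1 (-2.27 ± 0.55, adjusted p = 0.00437), Lag3 (-2.0 ± 0.35, adjusted p = 0.000238), Cd274 (-1.67 ± 0.35, adjusted p = 0.0014), Havcr2 (-1.15 ± 0.26, adjusted p = 0.00271) and Tnfrsf9 (-0.99 ± 0.26, adjusted p = 0.00745). The site differences of Pdcd1, Lag3, Cd274 and Havcr2 were negative in AB1 and positive in AE17. For Icos and Ctla4, whose site differences were negative in both models without passing the threshold for Ctla4 in AE17, the interaction was at -0.88 (95% interval -1.70 to -0.07, adjusted p = 0.118) and -0.83 (interval -1.60 to -0.06, adjusted p = 0.119). Vsir was at -0.23 (interval -0.63 to 0.16).

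All 6 calls held without any 1 of the 32 tumors. With T cell markers in the fit, Pdcd1lg2 (-1.78, edgeR adjusted p = 0.0143) and Lag3 (-0.92, adjusted p = 0.00774) passed. The same 2 genes passed with sequencing lane in the fit, at -2.82 and -2.04. Few genes of any kind passed with lane, 117 of 15681 against 3212 without it, so the lost calls are no result about the checkpoint genes. None passed with macrophage markers in the fit, where Pdcd1lg2 was at -1.96 (adjusted p = 0.0587).

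CD3 transcript levels differed between tumors, and each gene was therefore also set against the summed CPM of Cd3d, Cd3e and Cd3g in the same tumor, as a description with no test. In AB1 the ratio of Pdcd1 to CD3 ranged from 0.328 to 0.627 in IPL tumors (median 0.436) and from 0.299 to 0.461 in SC tumors (median 0.344). In AE17 it ranged from 0.400 to 0.799 in IPL tumors (median 0.489) and from 0.147 to 0.388 in SC tumors (median 0.275), so that the AE17 groups did not overlap. Every IPL tumor lay above every SC tumor on this ratio for 0.0205% of the 14668 genes tested in AE17. Lag3 per CD3 had close medians, at 0.413 and 0.445 in AB1 IPL and SC and 0.376 and 0.337 in AE17 IPL and SC tumors, with overlapping ranges.

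Icos per CD3 separated the AE17 groups in the other direction, at 0.0508 to 0.150 in IPL tumors (median 0.0974) and 0.251 to 0.966 in SC tumors (median 0.488), as 0.355% of genes did. In AB1 it had a median of 0.274 in IPL and 0.578 in SC tumors, with overlap through 1 IPL tumor. Ctla4 per CD3 ranged from 0.0708 to 0.2109 in AE17 IPL (median 0.107), against 0.2110 to 0.759 for SC growth (median 0.475), so that the highest IPL tumor lay just below the lowest SC tumor. In AB1 its IPL range, from 0.0957 to 0.642, held the whole SC range, from 0.276 to 0.427, with medians of 0.221 and 0.354. The ratio of Pdcd1 to Icos CPM spanned 2.67 to 9.23 in the IPL tumors of AE17 and 0.226 to 1.16 in its SC tumors. This lack of overlap restates the CD3 ratios of Pdcd1 and Icos, and no share over other pairs of genes was computed.

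Pdcd1lg2 per CD3 was lower in IPL tumors without overlap in both models, at 0.0956 to 0.415 against 0.587 to 1.95 in AB1, where 0.0205% of genes did so, and at 0.0482 to 0.104 against 0.115 to 0.406 in AE17. Vsir per CD3 was at 2.79 to 9.78 in AB1 IPL and at 1.5 to 2.37 in AB1 SC tumors. This is no result about Vsir, since 25% of all genes were higher per CD3 without overlap in AB1 IPL tumors, where the median CD3 sum was 18.5 CPM against 40.9 in SC tumors. The ratios of Cd274, Havcr2 and Tnfrsf9 to CD3 overlapped between sites in both models.

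Markers of T cell subsets were read beside these ratios. Cd8a, of cytotoxic T cells, had a median of 46.6 CPM in AE17 IPL and 9.71 in AE17 SC tumors, with a log2 fold change of 1.60 ± 0.51 (edgeR adjusted p = 0.0732). Foxp3, which defines regulatory T cells, had medians of 2.71 and 10.9 CPM, and was lower in IPL tumors (log2 fold change -1.63 ± 0.38, adjusted p = 0.0248). In AB1 both were lower in IPL tumors, Cd8a by a log2 fold change of -1.14 (adjusted p = 0.0136) and Foxp3 by -1.21 (adjusted p = 1.34e-05). Per CD3 as above, Cd8a in AE17 was at 0.955 to 1.57 in IPL and 0.172 to 0.915 in SC tumors. Foxp3 per CD3 was at 0.05 to 0.0952 and 0.213 to 0.897. Neither gene had overlapping ranges. The Pdcd1 to Cd8a ratio overlapped, at 0.27 to 0.62 (median 0.40) in AE17 IPL and 0.40 to 1.27 (median 0.49) in SC tumors. The Ctla4 to Foxp3 ratio overlapped too, at 1.02 to 2.87 and 0.846 to 1.61. The part of these subsets in the checkpoint differences was not tested.

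**Figure D3:**
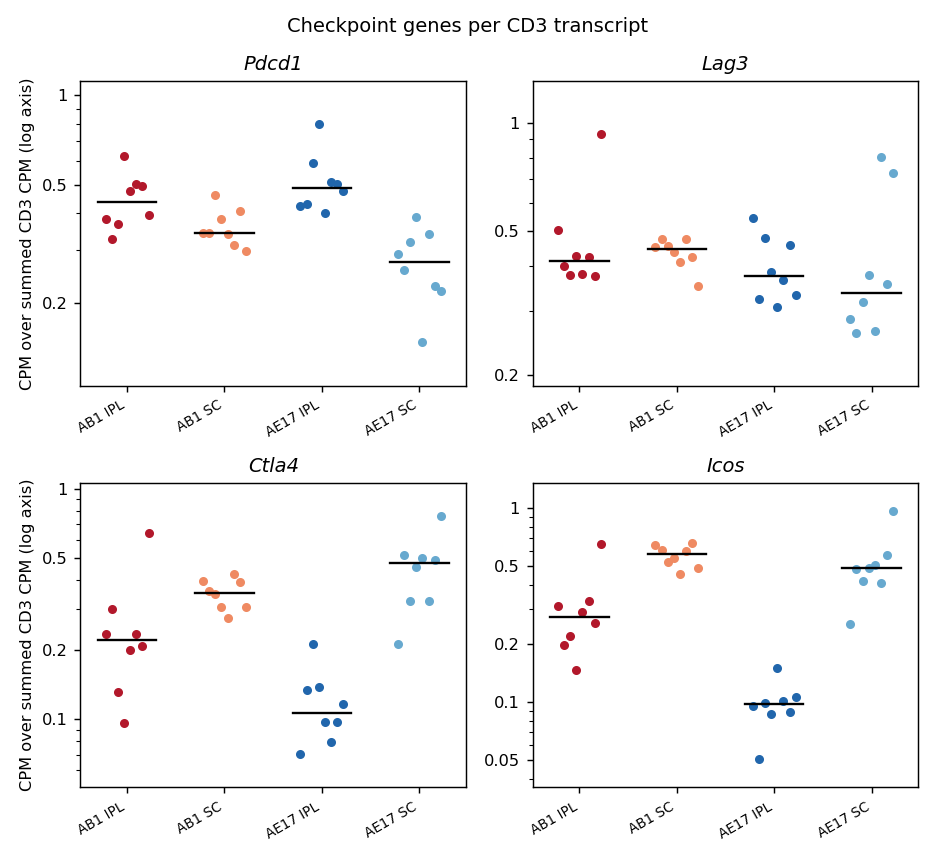
CPM of Pdcd1, Lag3, Ctla4 and Icos divided by the summed CPM of Cd3d, Cd3e and Cd3g in the same tumor, on a log axis, with 1 point per tumor (8 per group) and a line at the group median. AE17 IPL tumors lie above AE17 SC tumors for Pdcd1 (0.400 to 0.799 against 0.147 to 0.388) and below them for Icos (0.0508 to 0.150 against 0.251 to 0.966).

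AB1 and AE17 tumors were then compared at each site, using the same tumors as above. No lane held tumors of both models at 1 site, so that model and lane cannot be told apart there. In SC tumors 5 checkpoint genes were higher in AB1 and 1 was lower, where 31.2% of 14718 genes were higher and 32.5% lower. Pdcd1lg2 was 10.2-fold higher in AB1 SC tumors (log2 fold change 3.35 ± 0.41, edgeR adjusted p = 1.83e-06). Its AB1 SC values lay apart from those of every other group, and the share of all genes that do so was not computed. The log2 fold changes were 1.19 for Icos, 1.15 for Lag3, 1.14 for Pdcd1 and 1.01 for Cd274, with adjusted p-values between 0.00145 and 0.0245. Vsir was lower in AB1, at -0.46 ± 0.13 (adjusted p = 0.00433). Ctla4 (0.66, adjusted p = 0.0585), Tnfrsf9 (0.28, adjusted p = 0.101) and Havcr2 (-0.02, 95% interval -0.47 to 0.42) did not pass. Lane could only be fitted over all 32 tumors at once, where lanes link the groups through the other site. In that fit 7 genes passed without lane, and with lane only Pdcd1lg2 and Lag3 did. Pdcd1 (log2 fold change 1.25 with lane and 1.15 without, edgeR adjusted p with lane 0.182), Cd274 (1.07 and 1.02, adjusted p = 0.0692) and Icos (1.28 and 1.20, adjusted p = 0.0631) were as large with lane, with larger standard errors. Vsir (-0.21 and -0.45, adjusted p = 0.559) and Ctla4 (0.47 and 0.67, adjusted p = 0.504) were smaller. With T cell markers in the fit Cd274 was at 0.40 (adjusted p = 0.0515) and Havcr2 passed at -0.45 (adjusted p = 0.00134).

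In IPL tumors 6 checkpoint genes were lower in AB1 and none was higher, where 28.6% of 14886 genes were lower and 30.5% higher. Havcr2 differed most, at a log2 fold change of -1.14 ± 0.13 (edgeR adjusted p = 1.09e-06). Its highest AB1 IPL tumor was at 23.9 CPM and its lowest AE17 IPL tumor at 31.7 CPM. The share of all genes that separate the models in this way was not computed. Pdcd1 was at -1.10, Lag3 at -0.81, Tnfrsf9 at -0.67, Vsir at -0.66 and Cd274 at -0.63, with adjusted p-values between 0.000557 and 0.0102. Pdcd1, Lag3 and Cd274 thus passed in opposite directions at the 2 sites, and Vsir was lower in AB1 at both. Pdcd1lg2 (0.29, interval -0.24 to 0.81), Icos (0.33, interval -0.22 to 0.89) and Ctla4 (-0.15, interval -0.60 to 0.31) did not pass. With T cell markers in the fit 2 genes passed, Havcr2 as lower in AB1 (-1.40, edgeR adjusted p = 2.54e-06) and Icos as higher (1.07, edgeR adjusted p = 0.00794), and with macrophage markers only Havcr2 did. With macrophage markers Pdcd1 was at -1.19, Lag3 at -0.87 and Cd274 at -0.76, as large as without them but with larger standard errors. Tnfrsf9 (-0.35) and Vsir (-0.09) were smaller. In the fit of all 32 tumors 6 genes passed without lane and only Havcr2 with it. Lag3 was at -0.79 with lane and -0.83 without, about as large but with a larger standard error. Pdcd1 (-0.87 and -1.12), Vsir (-0.50 and -0.68), Tnfrsf9 (-0.38 and -0.69) and Cd274 (-0.35 and -0.65) were smaller, also with larger standard errors.

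Levels were compared between genes as the group median of CPM per kilobase of merged exons. Cd274 was highest in 3 groups, at 17.5 in AB1 IPL, 41.9 in AB1 SC and 25.7 in AE17 IPL tumors, and stood at 20.8 next to Vsir at 21 in AE17 SC tumors. In AB1 SC tumors Pdcd1lg2 was second at 22.6 CPM per kilobase, above Vsir at 15.8, whereas in the other 3 groups it was among the 2 lowest, at 1.4 in AB1 IPL, 1.42 in AE17 IPL and 1.89 in AE17 SC tumors. Among the T cell receptors Pdcd1 was above Ctla4 and Icos in AE17 IPL tumors, at 9.75 against 1.93 and 0.865, and below them in AE17 SC tumors, at 2.12 against 4.22 and 3.08.

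Other genes of the checkpoint system were described by lists, whose counts are read beside the percentages given above. In AB1, 14 of 17 other inhibitory receptors and ligands were lower in IPL tumors and 1 was higher, with a median log2 fold change of -0.70. The lower ones included Klrc1 (-1.99, edgeR adjusted p = 0.000114), an inhibitory receptor of NK and T cells, and Cd96 (-1.49, adjusted p = 0.000273), which binds CD155. The 1 that was higher, Cd276 for B7-H3, was chosen after its values were seen and was at 0.56 (adjusted p = 0.00174). Of the other costimulatory receptors and ligands 10 of 11 were lower, among them Tnfrsf4 for OX40 (-1.44, adjusted p = 4.05e-05) and Tnfrsf18 for GITR (-1.05, adjusted p = 3.19e-05). Of 12 binding partners of the checkpoint receptors 9 had a row and 7 were tested, and of these only Cd86, the ligand of CTLA-4 and CD28, was lower (-1.26, adjusted p = 1.88e-05).

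Genes of interferon-gamma signaling and of T cell activation were also read in AB1. All 9 genes tested on the interferon-gamma axis, whose signaling is known to induce Cd274, were lower in IPL tumors, among them the chemokines Cxcl11 (-1.60, edgeR adjusted p = 0.000167) and Cxcl9 (-1.55, adjusted p = 0.000232), and Ifng was not analysed here. Of 9 transcription factors of activated or exhausted T cells 6 were lower, led by Eomes (-1.63, adjusted p = 1.32e-05). Macrophage markers were lower for 3 of 7, dendritic cell markers for 3 of 7 regulatory T cell markers for 4 of 4 and NK cell markers for 3 of 3, and B cell markers were higher for 3 of 4.

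In AE17 few of these genes moved. Tnfrsf4 was lower in IPL tumors (-1.13, edgeR adjusted p = 0.00512) as the single one of 12 costimulatory genes, and Cd200r1, an inhibitory receptor of myeloid cells, as the single one of 17 inhibitory genes (-0.61, adjusted p = 0.0349). Nectin2, a ligand of TIGIT and CD226, was higher (0.61, adjusted p = 0.0271), as was Lgals9, a ligand of TIM-3 (0.49, adjusted p = 0.0498). Of the 9 transcription factors tested, 1 was higher and none lower, with a median log2 fold change of 0.09. The higher one was Tox, of exhausted CD8 T cells (1.61, edgeR adjusted p = 0.0207). None of the 9 genes of the interferon-gamma axis passed the threshold. Regulatory T cell markers were lower for 3 of 4 and NK cell markers for 3 of 4, while none of 9 T cell markers and none of 7 macrophage markers passed. Dendritic cell markers were lower for 1 of 7 and B cell markers higher for 2 of 3.

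By the interaction test, the site difference was lower in AB1 than in AE17 for 10 of 17 inhibitory genes, 7 of 12 costimulatory genes, 8 of 9 genes of the interferon-gamma axis, 5 of 9 transcription factors and 8 of 9 T cell markers, and higher for none of them. Cxcl11 (log2 difference -2.17, edgeR adjusted p = 5.54e-05), Cd28, the costimulatory receptor that CTLA-4 competes with (-2.25, adjusted p = 0.00102), and Tox (-2.16, adjusted p = 0.00241) were among them. In SC tumors 5 of 9 genes of the interferon-gamma axis were higher in AB1 and 1 lower, among them Cxcl9 at 2.29 (adjusted p = 5.48e-05), with 3 of 17 inhibitory genes higher and 5 lower, and 3 of 12 costimulatory genes higher and 3 lower. In IPL tumors 1 of 9 genes of the interferon-gamma axis was higher in AB1 and 5 were lower. At that site 13 of 17 inhibitory and 8 of 12 costimulatory genes were lower in AB1 and none higher, among them Cd244a, listed as Cd244, at -2.77 (adjusted p = 8.48e-10) and Cd40 at -1.58 (adjusted p = 2.63e-06).

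The genes most like each checkpoint gene within groups were ranked by Spearman's rho over the 32 tumors among 15681 genes, after the group mean was removed. These are descriptions, since the tumors share libraries and cell content. Pdcd1 was most like Cd8b1 (0.93) and Sh2d2a (0.91), and Lag3 most like Nkg7 (0.86), Cd3d (0.86) and Fam26f (0.85). Icos went with Cd27 (0.90), Ms4a4b (0.88) and Lck (0.88), and Ctla4 with Foxp3 (0.84), Tnfaip3 (0.80) and Ifngr1 (0.80).

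The remaining 5 genes had other neighbors. Cd274 was most like the interferon-induced genes Gbp4 (0.89), Oasl2 (0.88) and Xaf1 (0.88), whereas Pdcd1lg2, next to it on the chromosome, was most like Prkcd (0.87), Itgax (0.84), which is the gene for the dendritic cell and macrophage integrin CD11c, and Vdr (0.83). The rho between Cd274 and Pdcd1lg2 was 0.42. Vsir was most like Ctsh (0.90), Sash3 (0.89) and Tnfrsf1b (0.88), Havcr2 like Zdhhc21 (0.83), Zc3h7a (0.81) and Chd7 (0.79), and Tnfrsf9 like Cd300lb (0.84), Fxyd5 (0.79) and Slc16a3 (0.78). Tnfrsf9 had a rho of 0.28 with Cd3e and Havcr2 of 0.24, against 0.87 for Pdcd1.

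**Figure D4:**
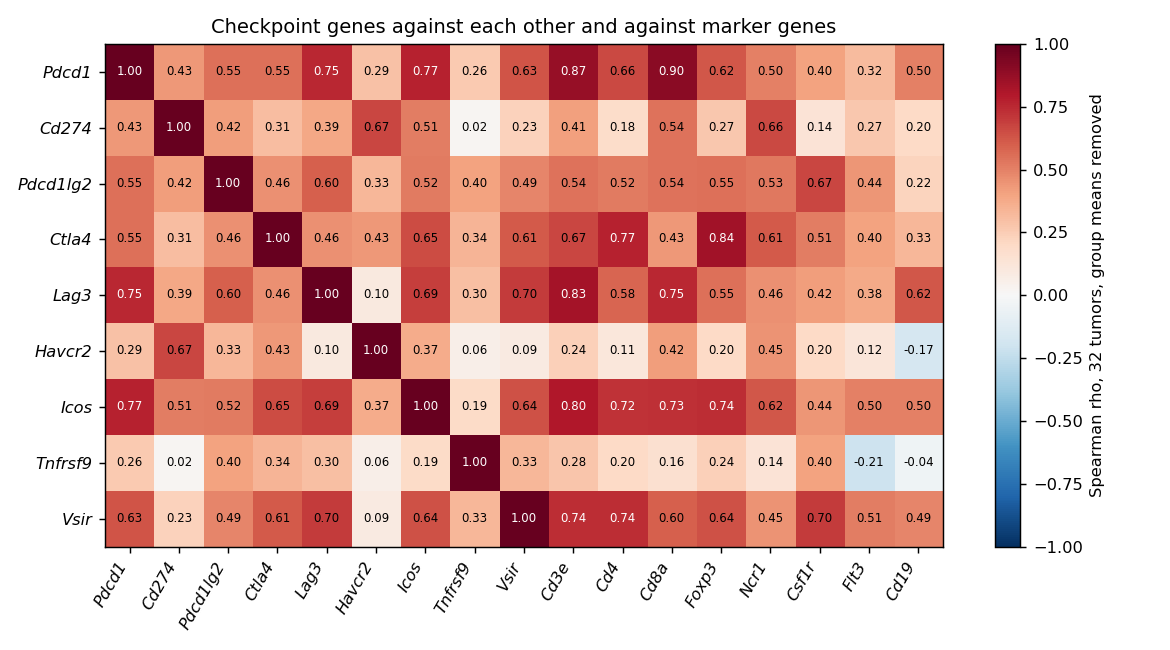
Spearman's rho over 32 tumors, with group means removed, of each checkpoint gene (rows) with the other checkpoint genes and with marker genes (columns), where red is positive. Pdcd1 is at 0.90 with Cd8a and Ctla4 at 0.84 with Foxp3, while Tnfrsf9 and Havcr2 are at 0.28 and 0.24 with Cd3e.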

How the data were processed

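The authors deposited raw counts of reads per gene for 32 whole tumors, made from 50 bp single-end reads of polyA RNA with bcl2fastq 1.8.4, HISAT2 2.0.4 and SummerizeOverlaps, without normalization. Sample labels gave group and replicate number, and alignment names gave the sequencing lane. Of 39676 identifiers 39495 matched GENCODE M21 (GRCm38) without the version, and 36719 with it, which supplied coordinates and exon lengths. The build named in the study's methods could not be matched to an assembly.

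Levels are CPM scaled by TMM factors. Differences were tested in R 4.3.3 with edgeR 4.0.16 (filterByExpr, TMM, robust quasi-likelihood, two-sided), adjusted by Benjamini-Hochberg over all genes tested. Site differences and model differences used the 16 tumors compared, and the interaction used all 32. Model differences with lane as a covariate used all 32 tumors too, since lane and model coincide within a site. Standard errors came from the fold change and its F statistic. DESeq2 1.42.0 and other alternatives are given at the end. The scripts were tested on simulated data. Tumor counts within groups gave a chi-square over its degrees of freedom of 5.51 to 134.7 in 112 pairs, so none was a copy. Floors cover counting error only.

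The checkpoint genes and lists were chosen with earlier results of these data known. Named genes were the checkpoint genes, defining markers, at most 4 genes of a list with the smallest adjusted p per comparison, and the 3 genes most like each checkpoint gene, with log2 CPM at a prior count of 2. A few of the genes this rule gives are not reported here.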

Additional observations from a re-analysis of the deposited data

Results flagged for a closer look

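The site difference of 6 checkpoint genes differed between AB1 and AE17 by the interaction test in edgeR, with log2 differences of -3.10 for Pdcd1lg2, -2.27 for Pdcd1, -2.0 for Lag3, -1.67 for Cd274, -1.15 for Havcr2 and -0.99 for Tnfrsf9. Single tumors stood apart from the other 7 of their group, on a test of the gap to the next tumor, in 3 of 36 combinations of gene and group, where chance gives about 1 in 20. Pdcd1 was at 20.6 CPM in AB1 IPL replicate 4, with the next tumor at 10.3 CPM. Lag3 was at 9.18 CPM in AE17 IPL replicate 3, with the next at 13.5 CPM. Icos was at 8.23 CPM in AE17 IPL replicate 5, with the next at 4.79 CPM. AE17 IPL replicate 5 was also 1 of 4 tumors without which Ctla4 passed the threshold between the AE17 sites.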

How the results depend on the processing

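In AB1 the number of checkpoint genes past the threshold stayed within 1.5 times the 7 reported, except within lane 3, where it was 3, and lay between 7 and 8 when each tumor was left out. In AE17 the reported count of 1 became 4 with DESeq2, with T cell markers in the fit or with all 32 tumors in 1 fit, and 2 with macrophage markers. It was 0 without a filter on low counts, with lane, with host tissue markers, within lane 1 or with the replicate block, and 0 to 3 when each tumor was left out. In the fits with 0, in this order, the log2 fold change of Icos was -1.50, -1.44, -1.61, -1.45 and -1.42. It was -1.49 in the reported fit, so the lost call came with larger standard errors and a fold change of similar size. For differences between models lane was fitted over all 32 tumors, so both the tumors and the covariate changed. The model difference in SC tumors gave 7 genes in the fit of 32 without lane, 2 with lane and 6 to 7 without each tumor. In IPL tumors it gave 6 in the fit of 32 without lane, 1 with lane, 2 with T cell markers and 1 with macrophage markers, and 6 to 7 without each tumor. The interaction gave 2 with lane, 2 with T cell markers and 0 with macrophage markers, and 6 without each tumor. The causes were not tested.

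Signs turned for Pdcd1 (0.68) and Vsir (0.49) in AB1 with T cell markers, for Vsir with macrophage markers in AB1 (0.28) and AE17 (-0.01), and for Havcr2 between SC models with the replicate block (0.08), macrophage markers (0.30), host tissue markers (0.04) or 1 tumor left out (-0.13 to 0.12, above 0 without AB1 SC replicates 3 or 4, both at 0.01, or AE17 SC replicates 1, at 0.12, or 3, at 0.05). Between IPL models they turned with macrophage markers for Pdcd1lg2 (-0.14), Ctla4 (0.45) and Icos (-0.10), and with T cell markers for Ctla4 (0.15). In the interaction they turned with T cell markers for Ctla4 (0.23), Icos (0.43) and Vsir (0.37), and with macrophage markers for Vsir (0.33). None of these but Vsir in AB1 with T cell markers passed the threshold.

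Over all genes, the AB1 count of 3374 became 386 with lane, 169 within lane 3, 610 with host tissue markers and 1368 with macrophage markers. The AE17 count of 840 became 1 with lane, 14 within lane 1, 51 with host tissue markers, 177 with macrophage markers, 394 with T cell markers, 550 without a filter, 1324 in 1 fit and 1768 with DESeq2, and 316 to 2066 without each tumor. The model counts of 9370 (SC) and 8793 (IPL) were 9138 and 9940 in the fit of 32 tumors without lane, 5268 and 5008 in that fit with lane, and 3981 in IPL with macrophage markers. The interaction count of 3212 became 117 with lane, 638 with macrophage markers, 1253 with host tissue markers and 1550 with T cell markers.

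The replicate number was shared between groups but not between animals. With it as a block the count of checkpoint genes was 8 in AB1, 0 in AE17, 7 between SC models, 6 between IPL models and 6 for the interaction. Over all genes the block gave 2263 in AB1. Residuals of same-numbered tumors correlated at -0.288 to -0.00525 in AB1 and -0.226 to 0.27 in AE17, and 0 of 8 and 3 of 8 tumors correlated best with their own number.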
